A study of Mus musculus with 3 samples.

Results

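Mitochondrial ribosomal protein genes (MRP genes) are the genes whose symbols are Mrpl or Mrps followed by a number, and pseudogene entries were left out. The rule found 78 genes among the 54838 listed, 49 named Mrpl for the large subunit and 29 named Mrps for the small subunit. They lie on 17 chromosomes, and each had UMIs in every section, with 1092 to 24160 UMIs in all. They were measured by spatial transcriptomics in thymus sections of 3 female C57BL/6 mice, in which a barcoded slide captures polyadenylated RNA and copies of 1 captured molecule are recognised by a unique molecular identifier (UMI). The KO sections came from *Trp53*-/- mice aged 21 weeks (KO1308) and 17 weeks (KO1134), and the WT section came from a *Trp53*+/+ mouse aged 17 weeks (WT1101, here WT). These ages are those of the labels, and the study's own sample list gives the WT mouse an older age. The deletion is in the germline, so the T, stromal and fat cells of a KO section all lack the gene, and all mice were perfused with cold PBS before the thymus was frozen. Each section is 1 mouse, and the study's methods give a longer permeabilisation of the tissue for KO than for WT sections, so that genotype, mouse and permeabilisation cannot be told apart.

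The mitochondrial ribosome translates the few messenger RNAs of the mitochondrial genome, all of which encode subunits of the respiratory chain and ATP synthase. All its proteins are encoded in the nucleus and imported, and its RNAs come from the mitochondrial genome. Some of the proteins have bacterial counterparts, whereas others are found in mitochondria alone. Cytosolic ribosomal protein genes (RPGs, Rpl and Rps) serve the separate ribosome that makes most of the cell's protein, and the study singles out raised RPG expression before tumours form. The comparison here asks whether the MRP genes went with the RPGs.

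The deposited sections held 21089885 UMIs for KO1308, 31237062 for KO1134 and 41581477 for WT. Neighbouring spots were pooled in squares of 27 µm, and those over tissue with at least 300 genes and at most 30% mitochondrial UMIs were used. These were 16140, 12009 and 27104 bins with a mean of 1090, 2591 and 1497 UMIs, of which 5.39, 13.1 and 8.45 were of MRP genes. *Trp53* stood at 25.1 and 17.0 UMIs per 1000000 UMIs (CPM) in KO1308 and KO1134 and at 79.9 in WT, lower in both KO sections as labelled but not at 0. T bins are those in which at least 1 of the CD3 genes (*Cd3d*, *Cd3e*, *Cd3g*) exceeded 2 as the natural logarithm of 1 + UMIs per 10000. Thymic T bins are the T bins of the thymus area. That area is where *Prss16*, *Psmb11*, *Themis*, *Arpp21*, *Ptcra* and *Cd8b1* together reach 50% or more of their section-wide share within 7 × 7 bins. Their section-wide share was 1425 CPM in KO1308, 645 in KO1134 and 2081 in WT, so the limit was lowest in KO1134. In thymic T bins they stood at 1869, 701 and 2207 CPM, and in WT bins outside the area at 594. Thymic T bins were therefore not alike between sections, least so in KO1134. A bin can hold several cells, so fewer cells of a type and less RNA per cell cannot be told apart. Thymic T bins numbered 5727 in KO1308, 2720 in KO1134 and 15865 in WT, and the summed CPM of the 3 CD3 genes in them was 1710, 1328 and 1945. Intervals in brackets are exact 95% intervals that cover counting error only. With 1 WT section no test between genotypes was made, and the spread between mice can be seen only from KO1308 against KO1134. The KO mice also differed in age and in UMIs per bin, so mouse, age and depth cannot be told apart in that spread.

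MRP genes summed to a lower level in the thymus of each KO mouse than in WT. RPGs summed to a much higher level in KO1134 and to a slightly higher one in KO1308. In thymic T bins MRP genes took 5001 CPM (4946 to 5056) in KO1308, 5023 (4971 to 5076) in KO1134 and 5697 (5668 to 5726) in WT. The KO sections were close to each other and both were below WT, with ratios of 0.878 (0.867 to 0.889) and 0.882 (0.872 to 0.892), a mean of 0.880 ± 0.003 (SD, n = 2). RPGs took 10.4% of UMIs in KO1308, 16.1% in KO1134 and 10.1% in WT, and their ratios to WT were 1.031 (1.028 to 1.034) and 1.602 (1.599 to 1.606). The RPG share was thus raised mainly in KO1134, in which the MRP level was the same as in KO1308 within counting error. MRP UMIs per 100 RPG UMIs were 4.82 in KO1308, 3.12 in KO1134 and 5.67 in WT, a ratio to WT of 0.851 (0.841 to 0.862) and 0.550 (0.544 to 0.557).

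Part of the lower MRP share in KO1134 went with the RPG share itself, since both are shares of the same total. With RPGs taken out of the total, the MRP ratio to WT was 0.946 (0.935 to 0.957) in KO1134 and 0.881 (0.870 to 0.892) in KO1308. The median gene had a ratio of 0.957 in KO1134 and 1.09 in KO1308 over 13313 genes with a mean of at least 5 CPM. After division by that median the summed MRP ratio was 0.922 in KO1134 and 0.809 in KO1308, so it was below the median gene in both. The summed RPG ratio was below the median gene in KO1308 too (1.031), and above it in KO1134 (1.602). The contrast of MRP genes with RPGs against the median gene was thus seen in KO1134 only. Over all tissue bins the levels were 4943 CPM in KO1308, 5053 in KO1134 and 5645 in WT, with ratios of 0.876 (0.869 to 0.883) and 0.895 (0.889 to 0.901). The summed B cell genes *Cd79a*, *Cd79b* and *Ms4a1*, a sign of other cells in the bins, stood at 80.6, 196 and 39.4 CPM in thymic T bins of KO1308, KO1134 and WT. Medullary epithelial genes stood at 587, 619 and 138 CPM there, and the proliferation genes *Mki67* and *Top2a* at 829, 455 and 920. The bins thus differed in make-up between KO and WT, and the part of this in the MRP ratio was not tested. Without lymph-node-like bins (those with more B cell than thymus UMIs around them) the MRP ratio in thymic T bins was 0.918 in KO1134 and 0.878 in KO1308.

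**Figure D1:**
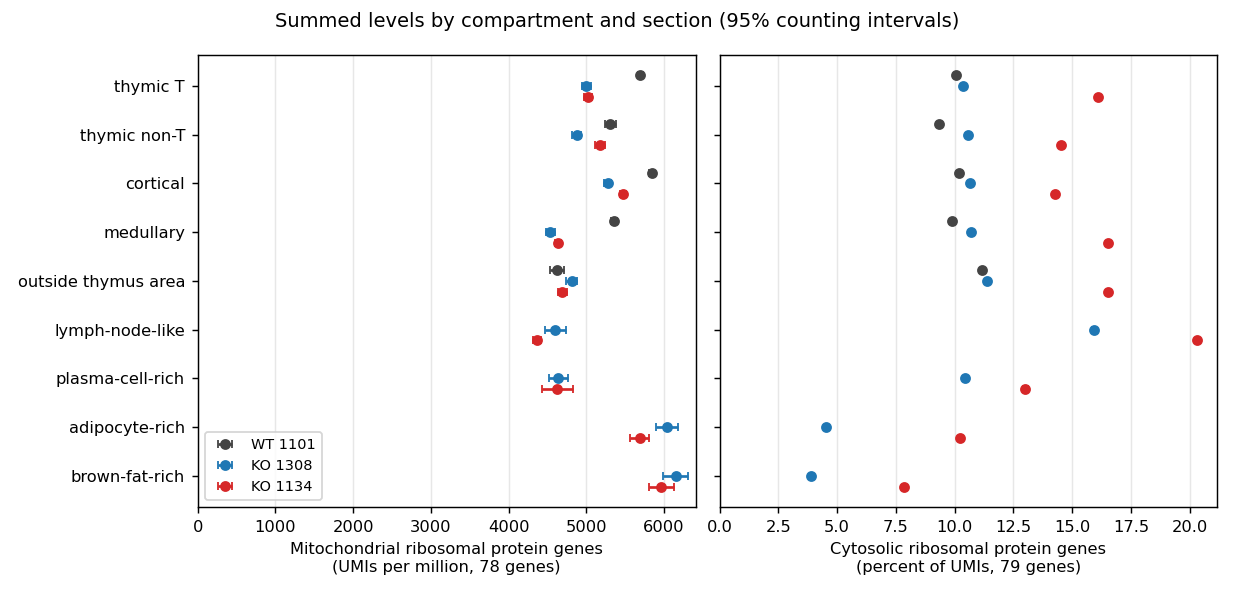
Summed MRP genes in CPM (left) and RPGs as a percent of UMIs (right) for each compartment (rows) and section (colours); points are sums over all bins of a compartment and bars are 95% counting intervals, and compartments with fewer than 50 bins in a section are left out. In thymic T bins both KO points lie near 5000 CPM, left of WT at 5697, while on the right KO1134 lies at 16.1% and KO1308 beside WT.

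Both subunits were lower in the KO sections, and single members moved their sums. The summed Mrpl genes had a ratio to WT of 0.858 (0.844 to 0.871) in KO1308 and 0.915 (0.902 to 0.928) in KO1134, and the summed Mrps genes had 0.909 (0.892 to 0.927) and 0.830 (0.814 to 0.846). Without *Mrps2* the Mrps ratio in KO1308 was 0.855 (0.838 to 0.872), close to that of the Mrpl genes. Without *Mrpl52* the Mrpl ratio in KO1134 was 0.855 (0.842 to 0.868). Grouped by the subunit in which the protein lies, the median ratio of the 51 large subunit members was 0.922 in KO1308 and 0.845 in KO1134, and that of the 26 small subunit members was 0.892 and 0.858. UMIs of Mrpl genes per UMI of Mrps genes came to 1.49 in KO1308, 1.74 in KO1134 and 1.58 in WT, and to 1.60, 1.76 and 1.59 without *Mrps2*. By origin, the 46 members with a bacterial counterpart had summed ratios of 0.915 (0.901 to 0.929) in KO1308 and 0.869 (0.856 to 0.882) in KO1134. The 31 members found in mitochondria alone had 0.829 (0.813 to 0.846) and 0.914 (0.897 to 0.932), but without *Mrpl52* the latter was 0.812 (0.795 to 0.829). Their median ratios were 0.872 in KO1308 and 0.791 in KO1134, below the 0.965 and 0.851 of members with a bacterial counterpart. The values without single members were added after seeing the data.

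Of the 78 members, all with a mean of at least 5 CPM in thymic T bins, 42 were below WT in both KO sections, 13 were above it in both and 23 were split. Among all 13313 genes, 33.2% were below WT in both and 36.9% above. Taking limits of at least 20% below or 25% above WT in both sections, which are the same fold, 18 members were lower and 1 was higher, beside 14.1% and 21.9% of all genes. In KO1308 alone, 28 members passed the lower and 9 the upper limit, where 22.2% and 37.5% of all genes were. In KO1134 alone, 32 were lower and 10 higher, where 33.9% and 30.0% of all genes were. The median member ratio was 0.911 in KO1308 and 0.844 in KO1134, compared with 0.963 and 1.53 for the 79 RPGs. All 79 RPGs were above WT in KO1134 and 34 of them in KO1308. The 2 KO sections share the WT section, so a low or high WT value moves both ratios.

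**Figure D2:**
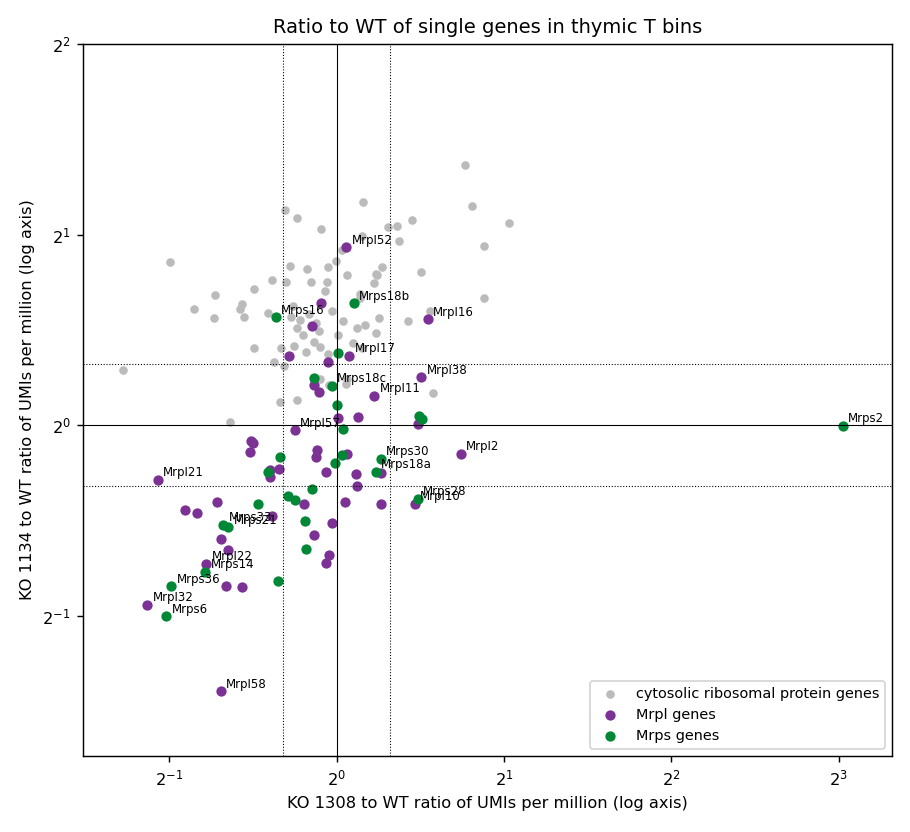
Ratio to WT of each gene in thymic T bins, KO1308 on the horizontal and KO1134 on the vertical axis (both log axes); each point is 1 gene, grey for RPGs, dotted lines mark 20% below and 25% above WT and solid lines mark 1. RPGs lie above the horizontal line at 1, most MRP genes lie below it, and Mrps2 lies far to the right at 8.14.

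The 18 members lower in both sections were 11 Mrpl genes, which are *Mrpl18*, *Mrpl22*, *Mrpl32*, *Mrpl34*, *Mrpl35*, *Mrpl39*, *Mrpl43*, *Mrpl44*, *Mrpl50*, *Mrpl53* and *Mrpl58*, and 7 Mrps genes, which are *Mrps6*, *Mrps14*, *Mrps21*, *Mrps25*, *Mrps26*, *Mrps33* and *Mrps36*. *Mrpl32*, a large subunit protein that is matured by a protease of the inner membrane, was at 54.4 CPM in KO1308, 62.1 in KO1134 and 119 in WT. Its ratios were 0.456 (0.407 to 0.511) and 0.521 (0.470 to 0.576). *Mrps6*, a small subunit protein with a bacterial counterpart, was at 24.9, 25.2 and 50.5 CPM, and its ratios of 0.494 (0.416 to 0.583) and 0.499 (0.424 to 0.585) were the lowest reached in both sections. *Slc5a3* and 2 other annotated genes overlap *Mrps6* on the same strand, so reads of the locus could be assigned to either. *Mrps14*, of the head of the small subunit, was at 148 CPM in KO1308, 149.5 in KO1134 and 255 in WT, with ratios of 0.580 (0.541 to 0.622) and 0.586 (0.549 to 0.626). *Mrpl22*, which lines the exit tunnel of the large subunit, was at 26.7, 27.6 and 45.8 CPM, and both ratios, 0.583 and 0.603, were again alike in the KO sections. In these 4 genes the ratios to WT ran from 0.456 to 0.603, and the KO sections did not differ from each other beyond counting error, *Mrpl32* being the furthest apart at a ratio of 1.14 (0.988 to 1.32). They were picked by the larger of their KO ratios to WT, a choice that favours genes alike in the KO sections. Of the other lower members, *Mrpl18*, *Mrpl34*, *Mrpl50*, *Mrpl53*, *Mrpl58* and *Mrps25* differed between the KO sections beyond counting error, and the rest did not.

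*Mrps36* was also in this group, at 37.4 CPM in KO1308, 41.3 in KO1134 and 74.3 in WT. Despite its name it is now known as a subunit of the 2-oxoglutarate dehydrogenase complex and not of the ribosome. Its ratios of 0.504 (0.438 to 0.577) and 0.556 (0.490 to 0.630) were as low as those of ribosomal members, and 3 pseudogenes of it are listed. *Mrps21* and *Mrps33*, both small subunit proteins, were at 114 and 96.8 CPM in KO1308, 123 and 108 in KO1134, and 178 and 155 in WT. *Mrpl58*, named after its value was seen because it had the lowest ratio in KO1134, is a peptidyl-tRNA hydrolase built into the large subunit. It was at 87.6 CPM in KO1308, 53.8 in KO1134 and 142 in WT, with ratios of 0.619 and 0.380.

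Only *Mrpl16*, a large subunit protein near the peptidyl transferase centre, was at least 25% higher in both sections. It was at 25.5 CPM in KO1308, 25.7 in KO1134 and 17.5 in WT, with ratios of 1.46 (1.21 to 1.75) and 1.47 (1.23 to 1.75). With all 3 CD3 genes required in a bin the ratio was 1.49 in KO1308, while no UMI of *Mrpl16* was left in KO1134. *Mrpl38*, of the central protuberance of the large subunit, was at 49.5, 41.5 and 34.9 CPM and reached 1.42 in KO1308 but 1.19 in KO1134. The next members from the top were *Mrpl11*, of the stalk base that contacts translation factors, at ratios of 1.17 and 1.11, *Mrps18b* at 1.07 and 1.56, and *Mrpl17* at 1.05 and 1.29. For *Mrps18b* and *Mrpl17* the interval of the KO1308 ratio included 1, and for *Mrpl11* that of the KO1134 ratio did (0.976 to 1.265), so they were not detectably different from WT there.

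The 3 genes that share the name *Mrps18* encode related proteins at different places in the ribosome. *Mrps18c* occupies the site of the bacterial protein, *Mrps18b* lies elsewhere in the small subunit, and *Mrps18a* belongs to the large subunit. *Mrps18c* was at 95.03 CPM in KO1308, 112 in KO1134 and 97.0 in WT. *Mrps18b* was at 14.6, 21.2 and 13.6 CPM, and *Mrps18a* was at 24.8, 17.7 and 21.0 CPM. The ratio of KO1134 to KO1308 was 1.45 for *Mrps18b*, 1.18 for *Mrps18c* and 0.717 for *Mrps18a*, so the paralogues differed in opposite directions between the KO mice. *Mrps30*, another gene with a small subunit name whose protein lies in the large subunit, was at 32.1 CPM in KO1308, 23.6 in KO1134 and 26.7 in WT.

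**Figure D3:**
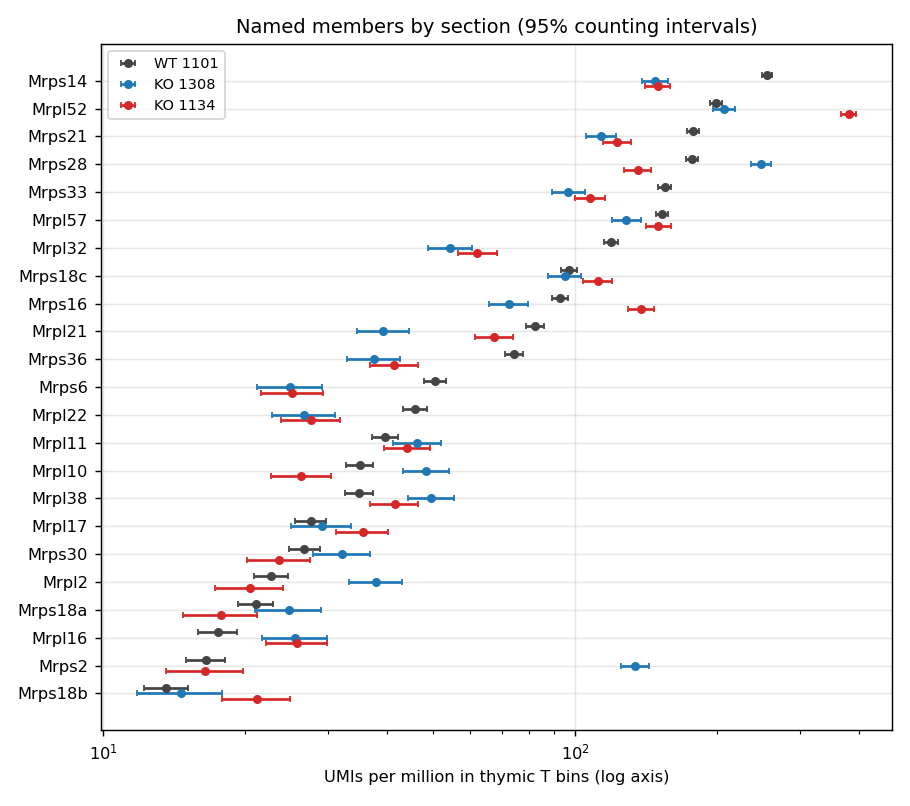
CPM in thymic T bins (log axis) of the 23 members named by rule, in order of the WT value; points are sections and bars are 95% counting intervals. Mrps14, Mrps21, Mrps33, Mrpl32, Mrps36, Mrps6 and Mrpl22 have both KO points left of WT, while Mrps2 has KO1308 alone at 134 CPM.

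The largest differences between the KO mice lay in single members. *Mrps2*, a core protein of the small subunit with a bacterial counterpart, was at 134 CPM in KO1308, 16.4 in KO1134 and 16.5 in WT. Its ratio to WT was 8.14 (7.23 to 9.17) in KO1308 and 0.997 (0.804 to 1.23) in KO1134, and 85 of 13303 genes with UMIs in WT (0.639%) had a ratio in KO1308 at least as high. The excess was found across the section and not in T bins alone. *Mrps2* was at 131 CPM in cortical, 168 in medullary, 124 in lymph-node-like and 132 in bins outside the thymus area of KO1308, but at 63.9 in brown-fat-rich bins. In KO1134 these values were 15.6, 13.7, 15.6, 16.5 and 31.5 CPM. Of 202 tiles of 270 µm in KO1308, 200 held *Mrps2* UMIs, at a median of 146 CPM with quartiles of 98.6 and 209, and no bin had more than 6 UMIs of it. The tile median was 14.7 CPM in KO1134 and 15.1 in WT. Of 8 genes with at least 5 CPM that start within 400 kb of *Mrps2* (chr2:28468066-28471178, GRCm38), none was raised in KO1308 to a like degree. Their ratios in KO1308 ran from 0.607 for *Tsc1* to 2.58 for *Rpsa-ps9*, and the latter was at 1.90 in KO1134. The cause of the *Mrps2* value was not tested.

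**Figure D4:**
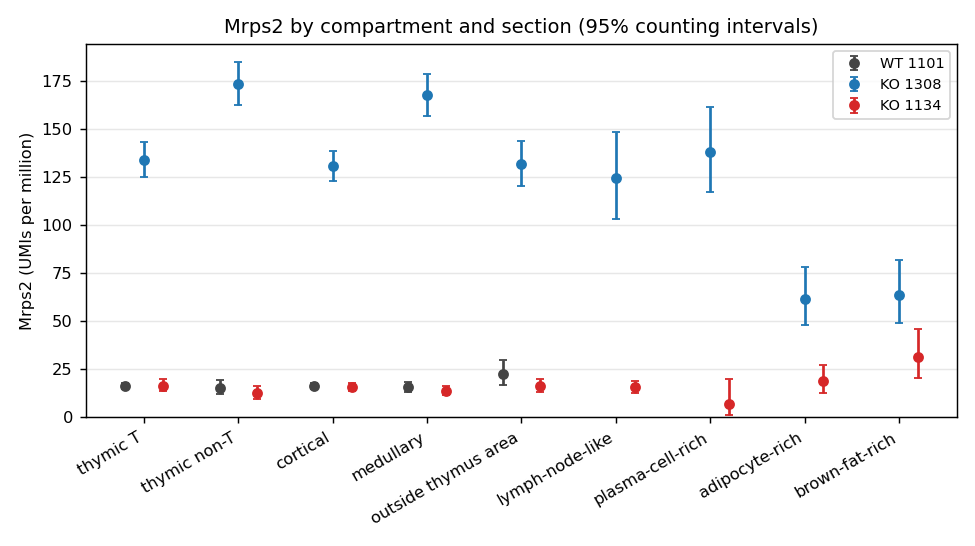
Mrps2 in CPM (vertical axis) by compartment (horizontal axis) and section (colours), with 95% counting intervals; compartments with fewer than 50 bins in a section are left out. KO1308 lies between 61.9 and 174 CPM in all compartments shown, while the other sections stay at 31.5 CPM or below.

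In the opposite direction, *Mrps16*, a small subunit protein, was at 72.3 CPM in KO1308, 138 in KO1134 and 93.0 in WT, and had the highest ratio between the KO sections at 1.90. *Mrpl52*, a large subunit protein without bacterial counterpart and the member with most UMIs, was at 207 CPM in KO1308, 380 in KO1134 and 199 in WT. Its ratio was 1.91 (1.82 to 2.002) in KO1134 and 1.04 (0.979 to 1.11) in KO1308, and within KO1134 it was 459 CPM in cortical and 336 in medullary bins. *Mrps16* and *Mrpl52* both lie on chromosome 14. The median ratio of the 475 genes tested there was 1.172 in KO1134 and 1.144 in KO1308, beside 0.957 and 1.085 over all genes. The part of this in the ratios of these members was not tested. *Mrpl21* was at 39.2, 67.4 and 82.2 CPM, lower in KO1308 than in KO1134. *Mrpl2*, next to the catalytic centre, was at 37.9, 20.5 and 22.7 CPM, and *Mrpl10*, which carries the stalk proteins, was at 48.4, 26.3 and 35.0 CPM, so both were higher in KO1308. The 3 members *Mrps16*, *Mrps28* and *Mrpl10* passed the limits of 20% below and 25% above WT in opposite directions in the KO sections. *Mrps28*, a small subunit protein with many UMIs, was at 248 CPM in KO1308, 136 in KO1134 and 177 in WT, and *Mrpl57* was at 129, 150.0 and 153 CPM. *Mrps2*, *Mrps16*, *Mrpl52* and *Mrpl10* have no annotated neighbour overlapping on their strand, whereas *Mrps28*, *Mrpl2* and *Mrpl21* each have 1.

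Promoters of the MRP genes were searched on both strands for CCGGAAGT (ETS factors), GCGCANGCG (NRF1), CACGTG (E-box) and AAGATGGCG (YY1), motifs known from nuclear genes of mitochondria. RefSeq promoters (GRCm38.p6), each 250 bases before to 50 bases after a transcription start, were matched by symbol for 69 of 78 members. At least 1 motif was in 35 of them (50.7%), beside 16.9% of all 27025 genes' promoters and 37.9% of the 58 RPG promoters matched. The ETS motif was in 15.9% of member promoters and 4.0% of all, NRF1 in 23.2% and 6.47%, the E-box in 7.25% and 7.24%, and YY1 in 11.6% and 1.49%. Of the 18 members lower in both sections, 9 held a motif, as did 26 of 50 members that were neither lower nor higher. The promoters below, 5′ to 3′ along the gene's strand, belong to a pair of members lower in both KO sections and to the members that stood apart in KO1134 (*Mrpl52*) and KO1308 (*Mrps2*), with motifs in capitals. *Mrpl32* has overlapping NRF1 matches, *Mrpl22* has 1 NRF1 match, *Mrpl52* has 1 ETS match, and *Mrps2* has none of the motifs in this window.
Mrpl32 (chr13:14612988-14613287, minus strand): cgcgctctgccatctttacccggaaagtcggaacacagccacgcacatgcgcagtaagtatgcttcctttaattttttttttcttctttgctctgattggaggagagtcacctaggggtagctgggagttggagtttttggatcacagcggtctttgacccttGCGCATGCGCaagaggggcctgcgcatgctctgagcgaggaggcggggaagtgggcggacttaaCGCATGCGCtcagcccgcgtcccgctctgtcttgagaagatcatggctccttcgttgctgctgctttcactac
Mrpl22 (chr11:58171414-58171713, plus strand): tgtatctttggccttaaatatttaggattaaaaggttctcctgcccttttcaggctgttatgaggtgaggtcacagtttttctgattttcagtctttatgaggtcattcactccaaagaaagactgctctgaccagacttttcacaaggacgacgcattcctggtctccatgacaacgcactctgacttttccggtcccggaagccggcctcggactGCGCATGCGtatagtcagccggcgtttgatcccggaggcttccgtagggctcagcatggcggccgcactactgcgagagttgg
Mrpl52 (chr14:54426659-54426958, plus strand): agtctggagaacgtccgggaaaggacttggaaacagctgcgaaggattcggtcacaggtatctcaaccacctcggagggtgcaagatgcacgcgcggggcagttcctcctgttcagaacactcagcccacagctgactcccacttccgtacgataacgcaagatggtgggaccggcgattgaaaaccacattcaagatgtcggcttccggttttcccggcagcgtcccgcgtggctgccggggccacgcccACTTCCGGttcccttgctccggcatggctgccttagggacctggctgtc
Mrps2 (chr2:28467816-28468115, plus strand): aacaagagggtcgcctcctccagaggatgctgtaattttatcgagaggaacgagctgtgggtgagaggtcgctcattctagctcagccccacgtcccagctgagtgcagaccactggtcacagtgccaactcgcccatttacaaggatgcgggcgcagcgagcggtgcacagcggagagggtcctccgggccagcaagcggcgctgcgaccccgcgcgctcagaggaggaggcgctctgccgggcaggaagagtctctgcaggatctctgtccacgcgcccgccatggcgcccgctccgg

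Of 8 known regulators of nuclear mitochondrial genes, 7 had at least 5 CPM in thymic T bins, and 3 were at least 20% lower in both KO sections and 2 at least 25% higher, beside 14.1% and 21.9% of all genes. *Yy1* was at 148 CPM in KO1308, 154 in KO1134 and 251 in WT. *Gabpa*, the DNA-binding part of an ETS factor, was at 67.6, 42.8 and 85.6 CPM, and *Nrf1* was at 80.0, 44.1 and 105 CPM. *Myc*, an E-box factor, was higher, at 146, 66.4 and 38.5 CPM, and so was the coactivator *Ppargc1b*, at 7.77, 6.72 and 4.43 CPM.

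The other mitoribosomal proteins summed lower like the MRP genes, and the sum of the factors of mitochondrial translation was not lower. The 5 mitoribosomal proteins with other symbols had a summed ratio of 0.842 (0.807 to 0.878) in KO1308 and 0.878 (0.844 to 0.913) in KO1134, close to that of the MRP genes. Of them only *Dap3*, a GTP-binding protein of the small subunit, was at least 20% lower in both sections, at 127, 89.8 and 169 CPM. The 10 translation factors summed to 1.27 (1.22 to 1.33) and 1.03 (0.989 to 1.08) of WT, with 3 higher and 2 lower in both sections by these limits, shares near those of all genes. Their median ratio was 1.125 in KO1308 but 0.8615 in KO1134, so the median factor was lower in KO1134. *Mtif2*, at 135.5 CPM in KO1308, 41.5 in KO1134 and 67.1 in WT, weighed on the KO1308 sum. *Gfm2*, which recycles the ribosome, was at 126 CPM in KO1308, 121 in KO1134 and 83.4 in WT, whereas *Mrrf*, the recycling factor that works with it, was at 13.6, 17.2 and 24.0 CPM. Of 22 assembly factors 20 passed 5 CPM, and 3 of them (*Gtpbp10*, *Mtg1* and *Noa1*) were higher and 2 (*Mtg2* and *Rpusd4*) lower in both sections, no more than the shares among all genes. Their sum was at 1.058 (1.02 to 1.097) of WT in KO1308 and 0.981 (0.946 to 1.017) in KO1134.

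The messenger RNAs that the mitochondrial ribosome translates summed to a higher level in both KO sections. The 13 mitochondrially encoded messengers summed to 1.02% of UMIs in KO1308, 1.04% in KO1134 and 0.774% in WT, ratios of 1.32 (1.31 to 1.33) and 1.34 (1.33 to 1.35). Of these, 8 were at least 25% higher in both sections and none was 20% lower in both, beside 21.9% and 14.1% of all genes. *mt-Nd4* was below WT in KO1308, at a ratio of 0.885 (0.858 to 0.913), and above it in KO1134, at 1.19 (1.16 to 1.22). *mt-Nd1*, of complex I, was at 741 CPM in KO1308, 788 in KO1134 and 344 in WT, while *mt-Co1* of complex IV was at 1869, 1914 and 1849 CPM, so the difference was not shared by all of them.

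Within sections, MRP genes were higher in cortical than in medullary bins of the thymus area in all 3 mice. Cortical bins are those with relatively more UMIs of the cortical epithelial genes *Psmb11*, *Prss16* and *Ccl25* around them than of medullary epithelial genes. Both lists were taken relative to their share in the thymus area of the same section. Medullary bins were thus not alike between sections, with medullary epithelial genes at 1204 CPM in KO1308, 1254 in KO1134 and 375 in WT. The levels in cortical and medullary bins were 5273 and 4537 CPM in KO1308, 5473 and 4633 in KO1134, and 5841 and 5356 in WT. The ratios were 1.16 (1.14 to 1.18), 1.18 (1.17 to 1.19) and 1.09 (1.08 to 1.10), a KO mean of 1.17 ± 0.013 (SD, n = 2). RPGs went the same way in WT but not in the KO sections, with cortex to medulla ratios of 0.997 (0.993 to 1.00), 0.863 (0.861 to 0.865) and 1.03 (1.03 to 1.04). Of the members, 39 of 78 were higher in cortical bins in all 3 sections and 1, *Mrpl38*, was lower in all, compared with 26.3% and 28.8% of all genes. Cortical bins held more UMIs of the proliferation genes *Mki67* and *Top2a*, at 941, 652 and 1016 CPM beside 507, 281 and 736 in medullary bins. Medullary bins held more UMIs of the B cell genes, at 144, 295 and 65.3 CPM beside 53.6, 59.9 and 28.1 in cortical bins, and the part of either list in the ratios was not tested.

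Within the thymus area the KO sections were below WT in each compartment compared. Cortical and medullary bins were called within each section and were not alike between sections, and the part of this in the ratios was not tested. The MRP ratio to WT was 0.903 and 0.937 in cortical bins of KO1308 and KO1134, 0.847 and 0.865 in medullary bins, and 0.918 and 0.974 in bins where all 3 CD3 genes were low (thymic non-T). With RPGs out of the total the thymic non-T ratio turned to 1.033 (1.016 to 1.051) in KO1134, while the cortical and medullary ratios there were 0.982 and 0.934 and all of those in KO1308 were below 1. Outside the thymus area the levels were 4813, 4691 and 4622 CPM in KO1308, KO1134 and WT, and both KO ratios were slightly above 1, at 1.04 (1.02 to 1.07) and 1.02 (0.992 to 1.04). The tissue there was not alike, since the KO sections held fat and lymph-node-like areas and the WT section had no lymph-node-like or brown-fat-rich bins.

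Thymic T bins with a UMI of *Mki67* or *Top2a* had a higher MRP level than those without. The levels were 5178 and 4750 CPM in KO1308, 5257 and 4708 in KO1134, and 5835 and 5314 in WT, ratios of 1.09 (1.07 to 1.12), 1.12 (1.09 to 1.14) and 1.10 (1.09 to 1.11). The bins with a UMI were deeper, with 1328 against 887 UMIs in KO1308, and the part of depth in this difference was not tested. RPG ratios in the same bins were 1.000, 0.818 and 1.10, so that the groups of genes went apart in KO1134. In KO1134 the bins without a proliferation UMI also held more UMIs of B cell genes, at 304 against 116 CPM, and of medullary epithelial genes, at 882 against 425 CPM, and their part in the RPG ratio was not tested. In proliferating thymic T bins the MRP ratio to WT was 0.887 in KO1308 and 0.901 in KO1134, and in the other thymic T bins it was 0.894 and 0.886.

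The study describes a precancerous T cell subset marked by *Cdkn2a*, a tumour suppressor gene of the cell cycle, and also high in *Xrcc6*, *Dntt* and *Rag1*. It reports raised scores of a chosen list of RPGs in that subset of its KO spatial data. The subset was not called here and all 79 RPGs were summed, so the ratios below are not values for the study's cells. Thymic T bins were split only by whether *Cdkn2a* was detected in them. In the 250 bins of KO1308 with *Cdkn2a* the MRP level was 5236 CPM, and it was 4989 in the remaining thymic T bins, a ratio of 1.05 (0.998 to 1.10). In the 368 bins of KO1134 it was 5296 and 4973 CPM, a ratio of 1.06 (1.04 to 1.09), and the KO mean was 1.06 ± 0.01 (SD, n = 2). The WT section had 14 such bins, at 5174 and 5697 CPM with a ratio of 0.908 (0.768 to 1.07). RPG ratios for the same bins were 1.08 (1.07 to 1.09) in KO1308 and 0.852 (0.847 to 0.857) in KO1134, while the interval of the MRP ratio in KO1308 included 1. The bins with *Cdkn2a* differed in other ways in KO1134, with 2941 against 2513 UMIs per bin, B cell genes at 67.5 against 219 CPM, cortical epithelial genes at 1354 against 934 and medullary epithelial genes at 332 against 672 CPM. The part of these in the ratios was not tested.

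The brown-fat-rich and lymph-node-like compartments separated the gene groups furthest. Neither call was limited to bins outside the thymus area, so a bin can also be a thymic T bin. The intervals of the ratios to thymic T bins do not allow for such overlap. In brown-fat-rich bins, called by *Ucp1*, the thermogenic gene of brown fat, the MRP level was 6148 CPM in KO1308 and 5966 in KO1134, ratios of 1.23 (1.20 to 1.26) and 1.19 (1.15 to 1.22) to thymic T bins of the same section. RPGs took 3.87% and 7.85% of UMIs there, 0.374 and 0.487 of their share in thymic T bins, and mitochondrially encoded messengers took 18.9% and 18.7%. In lymph-node-like bins the order was the reverse, with MRP genes at 4596 and 4364 CPM, ratios of 0.919 (0.891 to 0.948) and 0.869 (0.855 to 0.883), and RPGs at 15.9% and 20.3%. MRP UMIs per 100 RPG UMIs thus ran from 15.9 in brown-fat-rich to 2.89 in lymph-node-like bins of KO1308, and from 7.60 to 2.15 in KO1134. The MRP level itself ranged from 4364 to 6148 CPM over these bins. With RPGs out of the total, the brown-fat-rich ratios were 1.146 (1.115 to 1.179) and 1.081 (1.05 to 1.113) and the lymph-node-like ratios 0.980 (0.949 to 1.01) and 0.915 (0.900 to 0.929).

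Across tiles of 10 × 10 bins (270 µm) with at least 25 bins, the relation of MRP level to RPG share differed from section to section. Over 323 tiles of WT, Pearson's r was 0.52 and Spearman's rho 0.50. Over 202 tiles of KO1308 they were -0.02 and 0.04, and over 136 tiles of KO1134 -0.46 and -0.27. These tiles take in all tissue, fat and lymph-node-like areas included. Over tiles of thymic T bins alone, r and rho were 0.59 and 0.62 in WT (277 tiles), 0.31 and 0.33 in KO1308 (109 tiles) and -0.56 and -0.41 in KO1134 (44 tiles), so KO1308 was positive there. The coefficients are descriptions, since tiles share a library and a total. With RPGs out of the total for MRP genes, r over all tissue tiles was 0.67 in WT, 0.20 in KO1308 and -0.13 in KO1134. In WT the MRP level also went with the depth of the tile (r of 0.74), which was 0.34 in KO1308 and -0.24 in KO1134. With the proliferation genes, r was 0.56 in WT, 0.38 in KO1308 and 0.59 in KO1134, positive in each. Mrpl and Mrps sums went together across tiles at r of 0.67, 0.43 and 0.64.

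**Figure D5:**
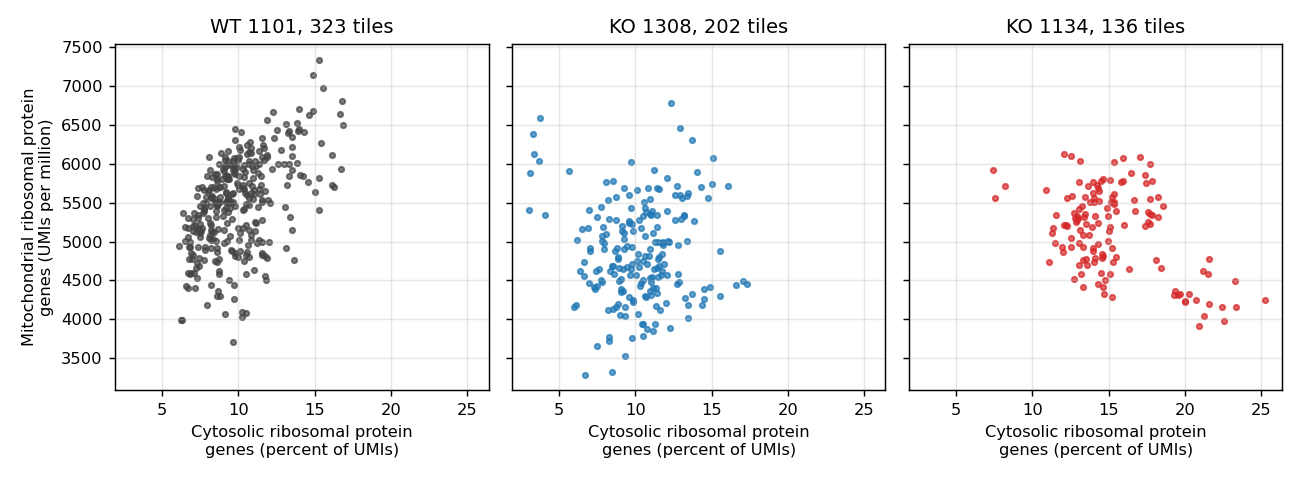
MRP level in CPM (vertical axis) against RPG share in percent of UMIs (horizontal axis) for tiles of 270 µm, 1 panel per section; each point is 1 tile with at least 25 bins. Tiles cover all tissue; the cloud rises in WT (r of 0.52), is flat in KO1308 (r of -0.02, but 0.31 over thymic T bins alone) and falls in KO1134 (r of -0.46).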

How the data were processed

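Each sample was 1 thymus section on a BMKMANU S1000 slide. The authors aligned the reads and deposited UMI counts of each spot as whole numbers, not normalised; per the labels the build was GRCm38. Spots were summed in bins of 27 µm, filtered at 300 genes and 30% mitochondrial UMIs, and kept in connected groups of at least 200 bins. CPM is the sum over bins per 1000000 UMIs. Compartments were called from marker genes in 7 × 7 bins, and fat-rich and plasma-cell-rich areas in 3 × 3 bins. Exact Poisson intervals (CPM) and exact conditional binomial intervals (ratios) at 95% cover counting error only, and UMIs from PCR errors or free RNA are not removed. Spot names shared between sections, 244006 to 903622 per pair, are slide positions. Depth per bin and section is given with the results.

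No test between genotypes was made. The rule for named members took the 6 with most UMIs, the 5 highest and the 5 lowest ratios shared by both KO sections, the *Mrps18* genes, *Mrps30*, *Mrps36*, and 3 members at either end of the ratio between KO sections. Members and lists were chosen with earlier results of these data known. Alternatives were bin width, bin filters, denominator, scaling, depth, CD3 rule, members and limits. Members were located in GENCODE M21, and 13 overlap another gene on the same strand. The calls and intervals were tried on simulated Poisson counts, drawn from a pooled profile of the sections with planted changes. These counts hold no spread between mice or in tissue make-up, so they say nothing on how the calls deal with either. Python 3.11.15, numpy 2.4.6, scipy 1.17.1, pandas 2.3.3 and matplotlib 3.10.9 were used.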

Additional observations from a re-analysis of the deposited data

Results flagged for a closer look

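The following 3 comparisons within sections went one way in both KO sections and the other way in WT, and these differences between genotypes were not tested. The MRP level in thymic T bins with a *Cdkn2a* UMI relative to those without had a ratio of 1.065 in KO1134, 1.05 in KO1308 and 0.908 in WT, where 14 bins carried it. The RPG ratio of cortical to medullary bins was 0.863 in KO1134, 0.997 in KO1308 and 1.033 in WT. The RPG ratio of thymic T bins with a proliferation UMI to those without was 0.818 in KO1134, 0.9996 in KO1308 and 1.098 in WT. In the last 2 comparisons the KO1308 value lay within 0.4% of 1.

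The pseudogene entry *Mrpl48-ps*, which is no member, was at 1.38 CPM in KO1134, 1.65 in KO1308 and 0.764 in WT over tissue bins, from 43, 29 and 31 UMIs. It was picked for being above WT in both KO sections. All 5 pseudogene entries together were lower there, at 66.8, 65.5 and 80.6 CPM. Of these *Mrpl23-ps1* stood at 55.8, 51.1 and 63.9 CPM, above the member *Mrpl23* at 48.2, 37.4 and 53.8, and the assignment of reads between them was not tested.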

How the results depend on the processing

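No test between genotypes exists, so these values are compared by their size and direction. Of 91 alternative values of the main results, 64 stayed within 1 SD of the KO sections, or within 1.5 times for counts. No ratio changed direction in its mean over the KO sections, and counts were not judged by direction. For the thymic T ratio the SD is only 0.003, so small shifts exceed it. Where the KO sections lie far apart the SD is wide, and staying within it says little. For MRP UMIs per RPG UMI the SD is 0.213, and the alternatives ran from 0.666 to 0.736. The MRP ratio to WT in tissue bins (0.885) was 0.916 with RPGs out of the total, 0.938 with mitochondrially encoded, immunoglobulin and haemoglobin genes out as well, 0.921 in bins of 800 to 2000 UMIs and 0.902 without lymph-node-like bins. In thymic T bins (0.880) it was 0.876 and 0.841 with bins of 20 and 50 µm, 0.913 and 0.926 with the smaller totals, 0.865 scaled to the median gene, 0.925 in bins of 800 to 2000 UMIs, 0.898 without lymph-node-like bins, 0.872 without overlapping members and those with a pseudogene, 0.873 with all 3 CD3 genes required (0.801 in KO1134 and 0.944 in KO1308) and, chosen after seeing the data, 0.869 without *Mrps2*. The cortex to medulla ratio (1.17) was 1.156 and 1.157 with the smaller totals, 1.118 in bins of 800 to 2000 UMIs, 1.156 without lymph-node-like bins and 1.157 without overlapping members. The *Cdkn2a* ratio (1.06) was 1.11 with 50 µm bins and 1.036 without lymph-node-like bins.

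The count of members higher in both KO sections (1) was 2 with either smaller total, 4 in bins of 800 to 2000 UMIs, 8 with all 3 CD3 genes required and 0 at 1.5-fold. The count of lower members (18) was 9 at 1.5-fold. Leaving out 1 KO section gave ratios of 0.876 and 0.895 for tissue, 0.878 and 0.882 for thymic T bins, 0.55 and 0.851 per RPG, 1.05 and 1.065 for *Cdkn2a* and 1.162 and 1.181 for cortex to medulla, and counts of 9 and 10 members higher and 28 and 32 lower. *Mrpl16* had a mean ratio of 0.746 with all 3 CD3 genes required, as no UMI of it was left in KO1134. Few UMIs can thus have been left in KO1134 under that rule. Its values there, and the count of 8 higher members, are uncertain. The causes of these shifts were not tested. Of 253 alternative values of the 23 named members, 205 stayed within 1 SD. That SD is wide for members that differ between the KO sections, such as *Mrps2* with ratios of 8.14 and 0.997. For such members this count says little. No paired analysis was possible because there is 1 WT section.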
